A study of Mus musculus with 8 samples.

Results

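7 genes of the B lymphocyte lineage were followed in RNA sequencing libraries of naive CD8+ T cells: Ighm and Ighd, the constant regions of the immunoglobulin mu and delta heavy chains, Cd79a and Cd79b, the signalling chains of the B cell receptor, Ms4a1 (CD20), a B cell surface protein, Cd74, the invariant chain of MHC class II, and H2-Aa, the alpha chain of the class II molecule I-A. They were picked by name out of 55573 genes, with the high count of Ighm and the low counts of Cd79a and Ms4a1 already seen. Their levels are therefore given as a description and were not tested. 6 of the 7 had at least 1 count, and 4 (Ighm, Ighd, Cd79b and Cd74) had counts high enough to be tested by genotype. Ighm stood at 730.1 ± 80.6 CPM over the 8 libraries (counts scaled to library size, mean ± SD), whereas Ms4a1 had 0 counts in every library. None of the 4 differed between the genotypes beyond the spread of the libraries.

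B cells build a heavy chain by joining a V, a D and a J segment, and the joined exon is spliced to the mu constant exons, or in mature naive B cells also to the delta exons just downstream. In mature B cells the heavy chain reaches the surface only with a light chain and with the heterodimer of CD79A and CD79B. An enhancer in the intron between the J segments and the mu exons is known to work in T cells as well as in B cells, and RNA of the mu constant region without a V segment has been described in T cells. Class II molecules present peptides to CD4+ T cells on B cells, dendritic cells and macrophages, and the co-activator CIITA switches their genes on. Mouse T cells are known for making little or none of them.

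The study compared 5 libraries labelled Furin KO with 3 labelled WT, from naive CD8+ T cells of male C57BL/6 mice, taken from spleen and lymph nodes by CD8a enrichment and cell sorting. WT replicate 1 and Furin KO replicate 1 were from mice of 7 weeks and the rest from mice of 8 weeks. The labels name no Cre driver, no deleted exon and no further allele or treatment, nor do they say whether every library came from its own animal. The spread behind each p-value may therefore be technical. Furin itself, the protease gene that the labels name as removed, was at 69.3 ± 11.8 CPM in Furin KO (n = 5) and 63.6 ± 5.71 CPM in WT (n = 3). A count over the whole gene cannot tell a deleted exon from an intact one, so it does not check the labels.

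Total counts were 11308220 to 21040431 per library, lowest in Furin KO replicate 5. Clustering by the distance between their counts, asked for 3 sets, put both genotypes in each: the first replicate of each genotype, then Furin KO replicates 2 and 3 beside WT replicate 2, and last Furin KO replicates 4 and 5 beside WT replicate 3. The distances ran from 11.34 to 17.55 within a set and from 17.65 to 41.21 between sets, so the sets were barely apart at their nearest. 7 T cell markers (Cd3d, Cd3e, Cd3g, Cd247, Cd8a, Cd8b1 and Trac) summed to between 6332 and 7769 CPM. 9 B cell markers (Ms4a1, Cd22, Cr2, Fcer2a, Cd79a, Pax5, Ebf1, Blk and Igkc) summed to between 0 and 1.34 CPM in the Furin KO libraries and between 0.618 and 1.74 CPM in WT. Ms4a1, Cd22, Cr2 and Fcer2a were at 0 throughout. 4 plasma cell markers summed to at most 0.703 CPM and 10 myeloid and dendritic cell markers to at most 3.49 CPM. In bulk RNA, fewer cells of a type and less RNA per cell cannot be told apart.

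The other genes of the immunoglobulin heavy chain locus were counted beside Ighm. Ighm (ENSMUSG00000076617) lies on the minus strand of GRCm38 chromosome 12, from 113418558 to 113422730, with 1886 bases of annotated exon. The 4 J segments lie 5783 to 7050 bases upstream of it and the D segment Ighd4-1 7797 bases upstream, while the nearest annotated V segment, Ighv5-1, is 150196 bases away. The sequences of these 5 short segments are shown because, of 209 annotated V, D and J genes of the locus, they held 593 of the 608 counts. They are read 5′ to 3′ on the coding strand from the GENCODE M21 transcripts (GRCm38). The 4 J segments were lined up at their TGGGG. Capitals mark TGGGGNNNAGG, which goes from there to the end of the next run of letters they share, with N where they differ. Letters shared outside this stretch are not marked:
Ighd4-1, chr12:113430528-113430538: ctaactgggac
Ighj1, chr12:113429781-113429833: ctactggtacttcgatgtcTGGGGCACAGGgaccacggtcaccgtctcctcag
Ighj2, chr12:113429468-113429515: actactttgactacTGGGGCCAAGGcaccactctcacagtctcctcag
Ighj3, chr12:113429085-113429132: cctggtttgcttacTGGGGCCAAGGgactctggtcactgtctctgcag
Ighj4, chr12:113428514-113428567: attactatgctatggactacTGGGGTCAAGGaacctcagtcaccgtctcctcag

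The motif was read off the 4 heavy chain J segments, so its presence there is by construction. It was in 0 of 10 light chain and 0 of 70 T cell receptor J transcripts, with 0 matches on the other strand in the 3 classes. Ighj2 has a further annotated transcript, of 54 bases and without the motif, which overlaps the one shown at its upstream end.

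Ighj1 had 27, 51 and 38 counts in WT replicates 1 to 3 and 38, 49, 30, 32 and 18 in Furin KO replicates 1 to 5. It was counted in every library. Ighj2, also counted in all 8, had 31, 5 and 25 counts in WT and 46, 24, 4, 21 and 4 in Furin KO. Ighj3 was counted in 5 libraries, with 54 counts, and Ighj4 in 3, with 46, of which 27 were in Furin KO replicate 1. Together the J segments had 543 counts, 5.12 for every 1000 Ighm counts (exact 95% interval 4.70 to 5.57, counting error only). Single libraries ran from 2.58 in Furin KO replicate 5 to 7.49 in WT replicate 1, a wider spread than this pooled interval. The 185 V genes had 15 counts, 0.142 for every 1000 of Ighm (exact 95% interval 0.0792 to 0.233), and 181 of them had none. 5 of the 15 fell in WT replicate 3, 4 in Furin KO replicate 2 and 6 in Furin KO replicate 4. Apart from Ighd4-1 the 19 D genes had 0 counts. How reads over more than 1 gene, or reads that match several genes, were counted is not given in the labels. These short segments are therefore not compared with Ighm per length. Reads that match several V genes may be missing from the V counts, which the interval does not cover.

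**Figure D1:**
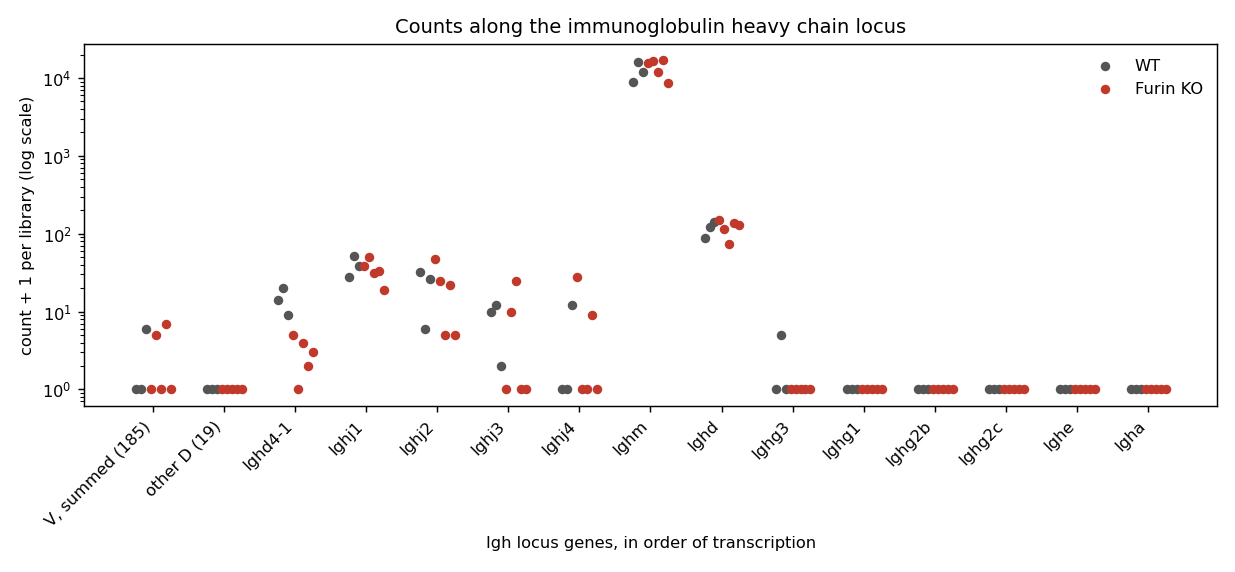
Counts of heavy chain locus genes in order of transcription, 1 point per library, on a log axis of count + 1 (a point at 1 is a library with 0 counts); V and the other D genes are summed. Ighm lies between 8529 and 16797 counts in each library, the V genes between 0 and 6 in sum.

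Ighm was the most abundant member. WT replicates 1 to 3 had 614, 829.3 and 675 CPM. Furin KO replicates 1 to 5 had 754, 788, 631, 800.3 and 749.7 CPM. The lowest and the highest library were both WT, so the Furin KO values lay inside the WT range. Per kilobase of exon, Ighm was at 387 ± 42.7 CPM (n = 8), rank 62 among 20016 genes matched to the annotation and with a count. On the same scale, Cd3e, a chain of the T cell receptor complex, was at 135 ± 9.64, Cd3d, another chain of it, at 264 ± 30.9, Cd8a at 464 ± 42.6 and Trac, the constant region of the T cell receptor alpha chain, at 1085 ± 71.5 CPM per kilobase. The ratio of Ighm to Cd8a per kilobase was 0.715 to 0.893 over the libraries. Ighm was thus above Cd3e and Cd3d in each library and below Cd8a in each.

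The order of the libraries by B cell marker level depended on which genes were counted as markers. Furin KO replicate 2 had 0 counts of the 9 B cell markers and 788 CPM of Ighm. WT replicate 3 had the highest marker sum, 1.74 CPM, and 675 CPM of Ighm, while WT replicate 1, with a marker sum of 0.618 CPM, had the lowest Ighm. Tnfrsf13c, the BAFF receptor, and Fcrl1, another B cell surface receptor, had 281 and 72 counts and were counted in all 8 libraries, both highest in WT replicate 2, at 3.44 and 1.20 CPM. With these 2 added after the data were seen, the marker sum was 1.37 to 5.58 CPM. It was then highest in WT replicate 2 and lowest in WT replicate 1, the libraries with the highest and the lowest Ighm. Between these the orders differed. Furin KO replicate 4, with 800.3 CPM of Ighm, had a sum of 2.05 CPM, and Furin KO replicate 3, with 631 CPM of Ighm, had 3.85 CPM. Furin KO replicate 2 had 3.02 CPM and Furin KO replicate 5 had 4.92 CPM. The match at the extremes rested on the choice of these 2 genes. No other gene of the B cell surface list with a count was highest in WT replicate 2. Cxcr5 of that list was highest in Furin KO replicate 2, at 6.08 CPM, and lowest in Furin KO replicate 4, at 2.67 CPM. Its span overlaps that of Bcl9l on the opposite strand, and the strand setting was not given. Cd72 was highest in Furin KO replicate 4 and Tnfrsf13b in WT replicate 3. The part of B cells in the Ighm level was not tested. The coefficient of variation of Ighm over the 8 libraries was 11.04%. That of 10 T cell genes (the T cell list apart from Cd4) was 5.03% (Trbc1) to 11.7% (Cd3d), and Cd3d was the one above Ighm.

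The light chain genes were almost without counts. Igkc, the kappa constant region, had 30 counts in total, of which 16 were in WT replicate 3, 8 in Furin KO replicate 1 and 6 in Furin KO replicate 5. That is 0.283 for every 1000 Ighm counts (exact 95% interval 0.191 to 0.404). The other 5 libraries had 0 Igkc counts. The 4 lambda constant genes Iglc1 to Iglc4 had 0, and the 160 kappa and 3 lambda V genes had 3 and 0. Reads that match several of these V genes may likewise be missing. Of the other heavy chain constant genes, Ighg3 had 4 counts in WT replicate 2, and Ighg1, Ighg2b, Ighg2c, Ighe and Igha, the classes reached by class switching, had 0.

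Ighd (ENSMUSG00000104213, chromosome 12, 113406604 to 113416324) starts 2233 bases downstream of Ighm. WT replicates 1 to 3 had 5.97, 6.26 and 7.98 CPM. Furin KO replicates 1 to 5 had 7.18, 5.41, 3.85, 6.53 and 11.3 CPM, with Furin KO replicate 3 the lowest and Furin KO replicate 5 the highest of all. In counts per kilobase Ighm was 116 ± 32.4 times Ighd (n = 8, range 67.1 to 165).

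The 2 chains of the CD79 heterodimer, which B cells assemble as partners, were far apart. Cd79b (ENSMUSG00000040592, chromosome 11, 106311341 to 106314762) had 20.1, 22.3 and 27.8 CPM in WT replicates 1 to 3 and 19.5, 20.02, 27.2, 25.2 and 22.1 CPM in Furin KO replicates 1 to 5. Its values were alike in the genotypes and within a narrow range. Cd79a (ENSMUSG00000003379, chromosome 7, 24897381 to 24902197) had 7, 9 and 9 counts in WT and 0, 0, 25, 13 and 0 counts in Furin KO, at most 1.34 CPM. Furin KO replicates 1, 2 and 5, which had no Cd79a count, had 402, 418 and 252 counts of Cd79b. Per kilobase the mean of Cd79b was 16.1 ± 2.32 and that of Cd79a 0.293 ± 0.309 CPM (n = 8).

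Ms4a1 (ENSMUSG00000024673, chromosome 19, 11249675 to 11266241) had 0 of 144320747 counts, which allows a level of up to 0.0208 CPM over the 8 libraries together and 0.143 to 0.265 CPM in single libraries, counting error only. Of the transcription factors that hold B cell identity, Pax5 had 17 counts in 2 libraries and Ebf1 8 counts in 2 libraries. Of 8 genes of B cell receptor signalling, 7 had a count. Plcg2, a phospholipase, had 1032 counts, Bank1, a scaffold, 387 and Pik3ap1, an adaptor, 163, each in all 8 libraries. The kinases Lyn, Btk, Syk and Blk had 19, 12, 8 and 1, and the adaptor Blnk had 0.

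**Figure D2:**
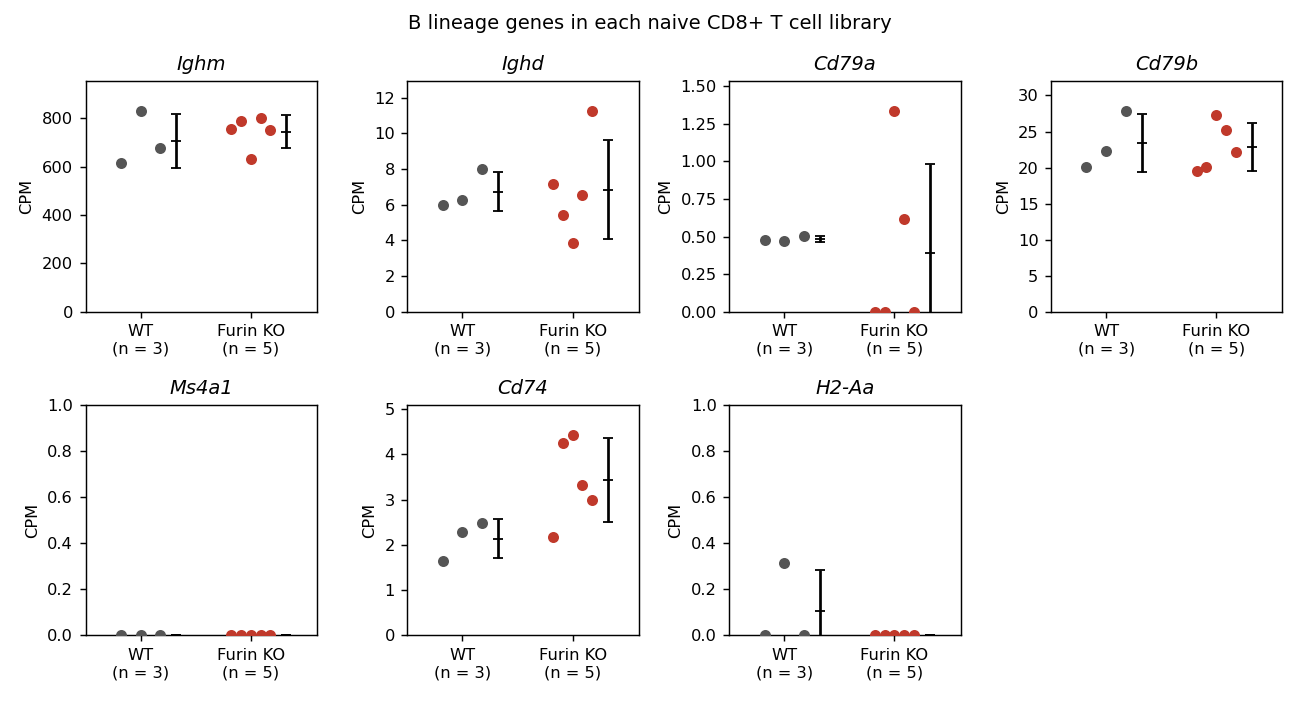
CPM of the 7 genes in each library (points), with the mean and SD of each genotype beside them; each panel has its own axis from 0. Ighm lies between 614 and 829.3 CPM and Ms4a1 at 0 in all 8 libraries.

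Some genes best known from B cells were nevertheless counted in each library. Cd72, an inhibitory lectin of the B cell surface, was at 138 ± 12.2 CPM (n = 8), Tnfrsf13b (TACI), a receptor for B cell survival factors, at 22.9 ± 4.52 CPM, and Pou2af1, a co-activator of octamer-bound transcription factors, at 16.4 ± 3.84 CPM. Dntt, the polymerase that adds bases at V(D)J joints, was at 11.8 ± 1.21 CPM, while Rag1 and Rag2, the recombinase, had 0 counts. Of 14 genes of the B cell surface list, 9 had a count and 5 had none. The transcribed span of Cd72 overlaps that of Tesk1 (77.1 CPM) on the opposite strand, and without the strand setting reads of the pair cannot be told apart. Tcf3 and Bach2, listed with B cell factors but also known from T cells, were at 178 ± 12.0 and 134 ± 17.3 CPM.

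**Figure D3:**
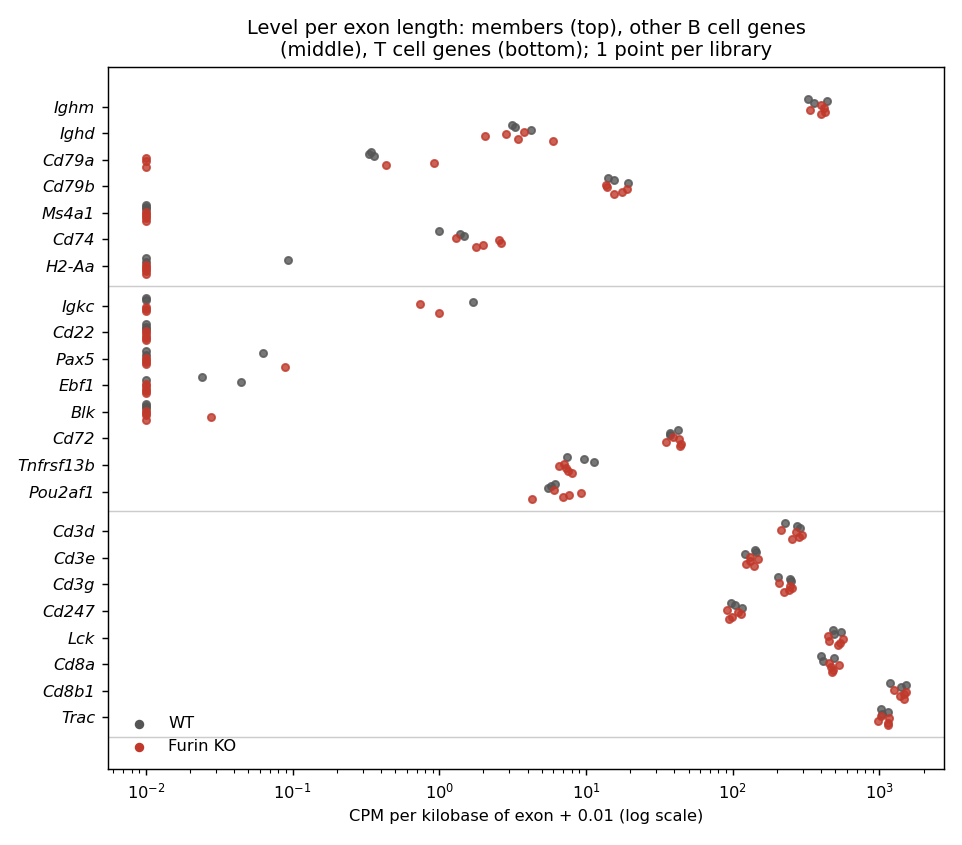
CPM per kilobase of exon, plus 0.01, on a log axis, for the 7 genes (top), other B cell genes (middle) and T cell genes (bottom), 1 point per library; points at the left edge are libraries with 0 counts. Ighm, at a mean of 387, lies among the T cell genes, and Cd22, Pax5, Ebf1 and Blk lie at or near the left edge.

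In order of level per kilobase, Ighm was followed by Cd79b, then Ighd at 3.58 ± 1.14, Cd74 at 1.76 ± 0.596, Cd79a, H2-Aa at 0.0103 ± 0.0291 CPM per kilobase and Ms4a1. Ighd and Cd74 overlapped over the libraries, as did Cd79a and H2-Aa, and H2-Aa and Ms4a1, which shared libraries at 0. The other neighbours in the order did not overlap.

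The class II chains were at or near 0, whereas some of the accessory chains, but not all, were present. H2-Aa (ENSMUSG00000036594, chromosome 17, 34282744 to 34287823) had 6 counts in WT replicate 2 and 0 in the other 7 libraries. Its partner H2-Ab1 had 9 counts in 3 libraries, H2-Eb1 21 in 3 libraries and H2-Eb2 19 in 3 libraries. Ciita, the co-activator, had 10 counts in 3 libraries. H2-Oa and H2-Ob, the chains of a molecule that restrains peptide loading, were at 50.0 ± 8.04 and 61.7 ± 9.79 CPM (n = 8). H2-DMa, a chain of the peptide loading catalyst, was at 80.3 ± 13.4 CPM, but its partner chains H2-DMb1 and H2-DMb2 were at 0.157 ± 0.185 and 0.815 ± 0.566 CPM. The span of H2-DMa overlaps that of Brd2 (679 CPM) on the opposite strand, and their reads cannot be told apart without the strand setting. Rfx5, Rfxap and Rfxank, the subunits of the factor that binds class II promoters together with CIITA, were at 42.7 ± 6.60, 24.4 ± 3.99 and 58.0 ± 10.1 CPM, of which Rfxank overlaps Nr2c2ap (34.8 CPM) on the opposite strand.

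Cd74 (ENSMUSG00000024610, chromosome 18, 60803848 to 60812652) had 1.65, 2.30 and 2.47 CPM in WT replicates 1 to 3 and 2.18, 4.26, 4.43, 3.34 and 2.99 CPM in Furin KO replicates 1 to 5. 4 of the 5 Furin KO libraries lay above all 3 WT libraries, and Furin KO replicate 1 lay inside the WT range. Over the 8 libraries it had 433 counts, 24 to 89 per library.

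**Figure D4:**
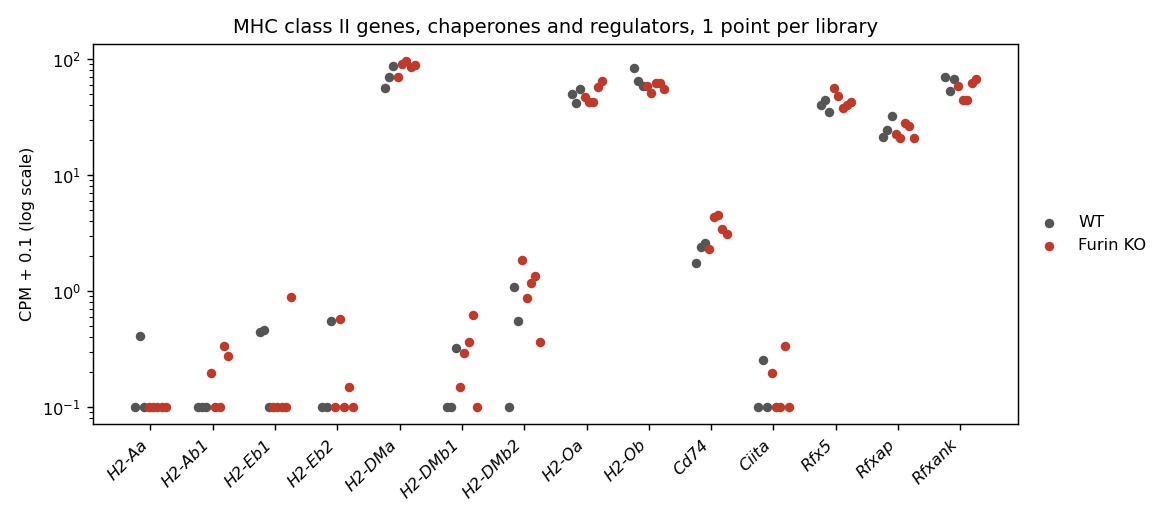
CPM + 0.1 on a log axis for class II genes, their accessory chains, Cd74, Ciita and the RFX subunits, 1 point per library in the order WT then Furin KO; points at 0.1 are libraries with 0 counts. H2-DMa, H2-Oa and H2-Ob lie between 41.9 and 95.3 CPM, and H2-Aa and H2-Ab1 at or under 0.313 CPM.

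By genotype, the 4 tested genes gave 0 calls with edgeR's quasi-likelihood test at a Benjamini-Hochberg adjusted p under 0.05 over 12500 genes, and 0 with DESeq2 or limma-voom. Of all genes tested, 0.0320% were called by edgeR, 0.0240% as higher in Furin KO and 0.00800% as lower. None of the 4 had an unadjusted p under 0.05 by any of the 3 tools, and at none did the groups separate, against 2.90% of all genes tested whose groups did not overlap. The mean of Ighm was 745 ± 67.0 CPM in Furin KO (n = 5) and 706 ± 111 CPM in WT (n = 3). Its log2 fold change was 0.077 (SE 0.11, 95% interval -0.15 to 0.30, edgeR adjusted p = 0.9998), with an exact two-sided permutation p of 0.482, where 56 arrangements allow no p under 0.0179. Within the 3 library sets the difference of Furin KO from WT in mean log2 CPM, with no pseudocount, was 0.30, -0.23 and 0.20, so it changed sign, and each set held 1 WT library.

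Ighd differed by 0.0092 on the log2 scale, with a 95% interval of -0.63 to 0.65 and an exact permutation p of 0.857. Its differences within the sets, on the same scale, were 0.27, -0.46 and 0.10, the same signs as those of Ighm. Cd79b differed by -0.037, with a 95% interval of -0.37 to 0.30 and an exact permutation p of 0.786, and by -0.045, 0.068 and -0.24 within the sets. Cd74 had the largest log2 fold change of the 4, 0.68 (SE 0.40, 95% interval -0.16 to 1.52, edgeR adjusted p = 0.9998; exact two-sided permutation p = 0.0893), and its mean log2 CPM stood above WT in each set, by 0.41, 0.92 and 0.35. The 10 myeloid and dendritic cell markers, from cells rich in Cd74, summed to 0.748 to 2.99 CPM in Furin KO and 0.480 to 3.49 CPM in WT, and their part in the Cd74 levels was not tested. The intervals of Ighm and Cd79b lie within a doubling in either direction, as does that of Ighd, whereas that of Cd74 reaches past it. Cd79a, Ms4a1 and H2-Aa were not tested because of their low counts.

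Among 77 genes of the B lineage, plasma cell and class II lists, 22 had 0 counts in every library and 32 were tested. 0 of the 32 passed by edgeR, DESeq2 or limma-voom, with 4, 5 and 4 at an unadjusted p under 0.05. These are 12.5%, 15.6% and 12.5% of the 32, beside 3.21%, 3.70% and 3.42% of all genes tested. 21 had log2 fold changes above 0 and 11 below, with a median of 0.060 beside -0.00068 over all genes tested. The groups did not overlap at 2 of the 32, beside 2.90% of all genes tested. The 2 were Irf4 and Irf8, transcription factors of activated lymphocytes and of B and myeloid cells. Irf4 had 10.3 ± 2.21 CPM in Furin KO and 4.20 ± 2.97 CPM in WT (edgeR adjusted p = 0.951), and Irf8 had 7.96 ± 1.01 and 4.96 ± 0.586 CPM (edgeR adjusted p = 0.9998). edgeR without a filter on low counts, which called 0.190% of 20027 genes, also called Irf4 (adjusted p = 0.00543). The adjusted p of Irf4 was 0.0676 to 0.99997 in the other 16 alternatives. Tnfrsf13b, with 20.6 ± 1.58 CPM in Furin KO and 26.8 ± 5.61 CPM in WT, and Plcg2, with 8.09 ± 0.819 and 5.34 ± 2.11 CPM, were the remaining genes with an unadjusted edgeR p under 0.05, and neither passed after adjustment.

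**Figure D5:**
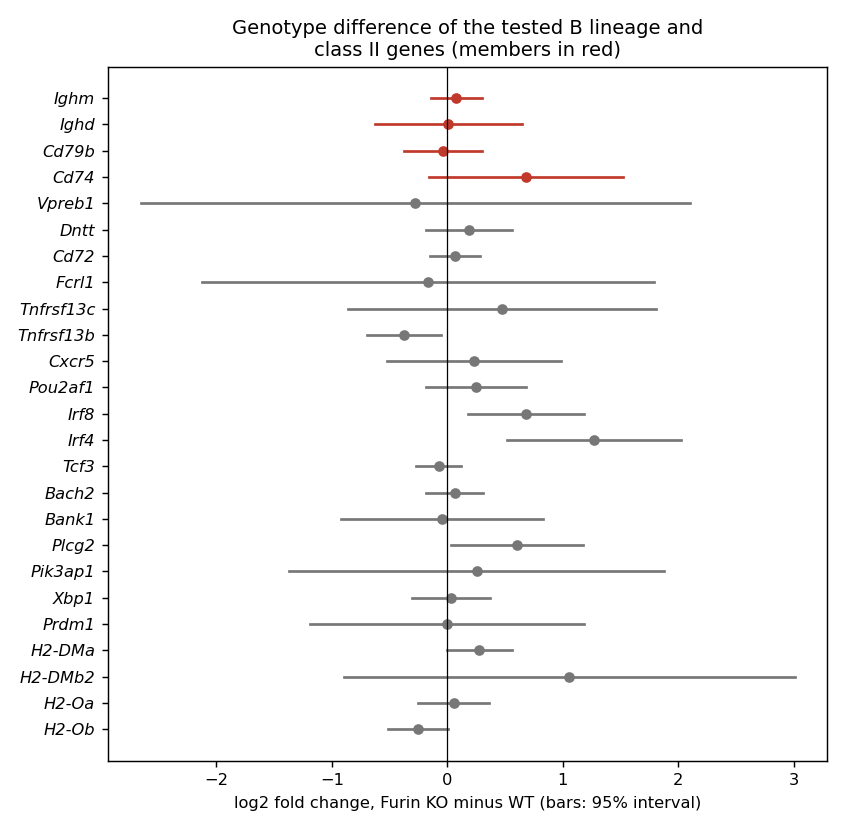
Log2 fold change of Furin KO against WT by edgeR (points) with its 95% interval (bars), for the tested genes of the B lineage, plasma cell and class II lists apart from the RFX, NF-Y and CREB factors of class II promoters, the 4 tested of the 7 in red. The red intervals all cross 0, and the point of Irf4 lies farthest to the right, at 1.27.

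The genes whose level moved most like that of Ighm from library to library were found among 9274 others with a mean of at least 5 CPM, by the mean absolute difference of log2(CPM + 1) after centring each gene on its own mean. They were Rab24 (difference 0.046), Stx5a (0.046), Mrm1 (0.049), Pepd (0.055) and B4galnt1 (0.056), beside a mean departure of Ighm from its own mean of 0.14. Rab24, a small GTPase, had 70.6, 91.2 and 78.5 CPM in WT replicates 1 to 3, in the same order as Ighm among the WT libraries, and was highest of all in Furin KO replicate 4, at 93.2 CPM. None of the 5 is an immunoglobulin gene, but Ighd, at 6.80 CPM, was the only other such gene to reach the minimum of 5 CPM. Their absence was therefore nearly fixed beforehand and carries no information. The order of 9274 such differences over 8 libraries is a description and was not tested.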

How the data were processed

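The deposited data are raw read counts, whole numbers, for 55573 mouse Ensembl IDs in 8 samples. Per the submitters' processing notes, FastQC, Trim Galore, STAR, DESeq2 1.24.0 and the build GRCm38 are named. The counting program, annotation, strand setting and treatment of reads that match several genes are named in no source used here. Columns were matched to samples by title, and symbols, exon lengths and segment sequences came from GENCODE M21 (55480 IDs matched, 93 did not).

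CPM values use TMM-scaled library sizes, and level per length divides them by the union of annotated exons. Genotype was tested on the deposited counts with edgeR 4.0.16 (limma 3.58.1, R 4.3.3), filterByExpr, quasi-likelihood, two-sided, without covariates. The permutation test used log2(CPM + 1). On simulated data (12500 genes, this comparison) the test recovered 85% of 2-fold and 100% of 4-fold changes, with 8 false among 193 calls. The simulation gave every gene the same biological coefficient of variation, 0.202, and held no library sets. It changed 100 genes at each fold, all of at least 1 CPM. Its recovery therefore does not carry over to genes of low count or wider spread. Alternatives were RLE factors, library size alone, no filter, CPM of 1 in 3 libraries, DESeq2 1.42.0, limma-voom, age or library set as a factor, the 8-week libraries alone, and each library left out. Replicate numbers follow accession order and pair nothing. The 7 genes, the lists and the alternatives were chosen with earlier results of these data known. Named list genes are up to 4 of highest mean CPM per list; others were named after their values were seen. Some genes of the lists are not reported here, and list counts leave them out. Intervals and limits for a count of 0 cover counting error only.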

Additional observations from a re-analysis of the deposited data

Results flagged for a closer look

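Among 41 values tested in the 5 Furin KO libraries, 3 had 1 library far from the rest, where chance gives about 2.05. Bach2, a transcriptional repressor of lymphocytes, was at 170.6 CPM in Furin KO replicate 1 and at 122 to 136 CPM in the other 4. Prdm1, the factor of plasma cells and effector T cells, was at 3.38 CPM in Furin KO replicate 4 and at 1.07 to 1.65 CPM in the other 4. Lyn, a kinase of B cell receptor signalling, was at 0.703 CPM in Furin KO replicate 5 and at 0 to 0.145 CPM in the other 4. These Lyn values rest on few counts, 8 in Furin KO replicate 5 and 3, 0, 1 and 1 in Furin KO replicates 1 to 4. No value of the 7 genes was among them.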

How the results depend on the processing

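0 of the tested members passed in each of the 17 alternatives. The count of all genes called was 4 in the fit reported, 38 without the low-count filter, 15 with DESeq2, 12 with the library set as a factor, and 3 to 5 with 1 library left out. The log2 fold change of Cd74 kept its direction in the 17 alternatives, at 0.57 to 0.69 under other settings and 0.53 to 0.81 with 1 library left out. That of Ighm was -0.019 in the 8-week libraries alone and -0.011 to 0.21 with 1 library left out, below 0 without WT replicate 1 and highest without WT replicate 2. That of Ighd was -0.13 with limma-voom, -0.038 with the library set as a factor, -0.091 in the 8-week libraries alone and -0.23 to 0.16 with 1 library left out, below 0 when WT replicate 1 or 2, or Furin KO replicate 1 or 5, was left out. That of Cd79b was -0.13 to 0.11 with 1 library left out, above 0 when Furin KO replicate 1 or 2, or WT replicate 3, was left out. The cause was not tested. Mean CPM of the members and summed CPM of the lists stayed within 1 SD under other size factors. The mean sum of B cell markers moved from 0.724 to 3.40 CPM in Furin KO and from 1.10 to 3.18 CPM in WT with Tnfrsf13c and Fcrl1 added, a choice made after seeing the data. No paired analysis was possible because the labels give no replicate numbers shared by the genotypes, and the library set, found from the data, was the block fitted above. At these depths a gene at 0 in 1 library could be at up to 0.265 CPM.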

Other observations

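The D segment nearest the J segments, Ighd4-1, was counted unequally by genotype. It had 13, 19 and 8 counts in WT replicates 1 to 3 and 4, 0, 3, 1 and 2 counts in Furin KO replicates 1 to 5, or 0.778 ± 0.288 CPM in WT (n = 3) and 0.116 ± 0.0862 CPM in Furin KO (n = 5). The 3 WT libraries lay above all 5 Furin KO libraries. Groups did not overlap, in either direction, at 2.18% of the 20027 Ensembl IDs with a count, matched to the annotation or not. It was singled out after its values were seen. Its counts were under the filter of the genotype test. Without that filter edgeR gave a log2 fold change of -2.70 (SE 1.38, adjusted p = 0.868). An exact permutation test (two-sided) gave p = 0.0179, the lowest value 56 arrangements can give. This permutation p mostly restates the separation already seen when the segment was picked, so it is no separate evidence of a difference. Ighj1, the J segment next to it, had 2.22 ± 0.410 CPM in WT and 1.78 ± 0.340 CPM in Furin KO, with overlapping groups (edgeR adjusted p = 0.9998; exact two-sided permutation p = 0.161). The segment is 11 bases long, and 50 counts in all limit the precision.

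Vpreb1, a part of the surrogate light chain of B cell precursors, had 60 counts in 6 libraries, while its partner Igll1 had 0. Its span overlaps that of Top3b, with 17915 counts, on the opposite strand, and the strand setting was not given.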
